A study of Mus musculus with 10 samples.

Results

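Receptor-type protein tyrosine phosphatases are membrane proteins that remove phosphate from tyrosines inside the cell, and most carry adhesion-like domains outside it. The 10 genes described here, *Ptprd*, *Ptprs*, *Ptprf*, *Ptpra*, *Ptpre*, *Ptprg*, *Ptprj*, *Ptprk*, *Ptprm* and *Ptpro*, were taken by name from the 53801 genes of the count table. The group was chosen around *Ptprd* because this gene had the largest rise in the *Creb3l1* knockdown line among genes whose mean reached 100 normalised counts, so its difference between the lines is given as a description without a test. The data are 10 RNA sequencing libraries of AtT20/D16v-F2 cells, a mouse pituitary tumour line of corticotroph type. Of these, 5 came from cells stably transduced with a lentivirus expressing *Creb3l1*-shRNA1, a short hairpin RNA against the transcription factor gene *Creb3l1*. The other 5 came from cells that carried a non-targeting shRNA in the same way, and both lines were cultured without further treatment. Each group is a single stable line, so effects of the hairpin and other differences between these lines cannot be told apart. The study describes its replicates as biological, but the labels do not say whether the 5 RNA samples of a line came from separate cultures. The p-values measure only the spread between these samples.

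*Ptprd*, *Ptprs* and *Ptprf* form the LAR type of the family. Their outer parts bind adhesion proteins and heparan or chondroitin sulphate proteoglycans, and they are known for organising the presynaptic side of synapses and for guiding axons. *Ptpra* and *Ptpre* have short outer parts, and the former is known for activating Src kinases by removing an inhibitory phosphate. *Ptprg* binds contactins, *Ptprk* and *Ptprm* bind their own kind on neighbouring cells, and *Ptprj* and *Ptpro* carry a single phosphatase domain behind a row of fibronectin-like repeats.

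The sequences of the hairpin targets and of the catalytic site show what separates the lines and what the genes share. The targets are given because each line is defined by its own.

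Creb3l1-shRNA1: gagtcggatttcctcaacaat
non-targeting shRNA: atcatgttaggcgtacggact

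Among the annotated mouse transcripts (GENCODE M21, GRCm38) the target of *Creb3l1*-shRNA1 had an exact match in 1 gene, *Creb3l1*, and the non-targeting sequence had one in 0 genes. The word that pairs with bases 2 to 8 of the *Creb3l1*-shRNA1 guide, tcaacaa, occurred in the longest 3' UTR of 0 of the 10 phosphatase genes, and in 9.33% of the 12317 tested genes with such a UTR.

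The catalytic loop is given because it is the feature by which these genes are recognised as a family, and it was not used to choose them. Each line holds 30 bases of coding sequence around the loop of the phosphatase domain nearest the membrane, with the codons of the catalytic cysteine and of the phosphate-binding arginine in capitals.

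Ptprd: gtacacTGCagtgctggtgttggcAGAact
Ptprs: gtccacTGCagcgcgggtgtggggCGCact
Ptprf: gtgcatTGCagtgcgggtgtggggCGCaca
Ptpra: gtccacTGCagtgcaggtgtagggCGCact
Ptprg: gtgcacTGCagcgctggtgtgggcAGGaca
Ptprj: gtgcatTGCagtgctggggttggaAGGacg
Ptprm: gtacacTGCagtgctggagcaggaAGGaca

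The *Ptprs* window had 23 and the *Ptprf* window 22 of 30 bases in common with that of *Ptprd*, against 25 for *Ptprg* and 24 each for *Ptpra*, *Ptprj* and *Ptprm*. Apart from that of *Ptprm*, the windows shown code for the same amino acids, so the counts of bases do not order the genes by likeness of the loop. A loop of this kind was found 2 times in the coding sequence of 7 of the genes, and once in *Ptprg*, *Ptprj* and *Ptpro*. Outside such short stretches the genes differ. None of the 23795 different words of 75 bases in *Ptprd* transcripts, the length of a read, occurred in a transcript of another gene, and the same held for *Ptprs*, *Ptprf* and *Ptpra*. In *Ptprj* 8.06% of the words were shared with *Gm13767*, *Gm13768* or *Gm18953*, all of which had 0 counts in the 10 libraries. In *Ptprm* 4.23% of the words were shared with *AC139750.1*, a processed pseudogene that overlaps it on the same strand. That pseudogene is not among the counted genes, so its level is not known. In *Ptprg* 0.163% of the words were shared, with 37 genes.

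The libraries held between 17420698 and 22205107 counts on genes. Replicate 3 of the control line stood apart in the share of *Gm42418*, a non-coding gene, which was 4.13% there and 0.107% to 0.129% in the rest of that line. The targeted gene *Creb3l1* was at 3689 ± 148 (SD, n = 5) normalised counts in the control line and at 1090 ± 59.2 (SD, n = 5) in the knockdown line, and the lines did not overlap. All 9 corticotroph markers were detected, with *Pomc*, the precursor of ACTH, at 131400 ± 4050 (SD, n = 5) and *Tbx19*, the corticotroph lineage factor, at 11660 ± 120 (SD, n = 5) normalised counts in control libraries. In knockdown libraries these were at 92040 ± 2650 (SD, n = 5) and 9669 ± 228 (SD, n = 5). At an adjusted p under 0.01 (edgeR) 4 of the 9 markers rose and 4 fell, 88.9% against 40.7% of all genes tested. *Neurod1*, *Pitx1*, *Chga* and *Chgb* rose, and *Pomc*, *Tbx19*, *Pcsk1* and *Nr3c1* fell. The remaining marker, *Crhr1*, did not pass and was low, at 29.2 ± 6.09 (SD, n = 5) in control and 26.95 ± 10.3 (SD, n = 5) in knockdown libraries. The call on *Pitx1*, which rose, was lost in 7 of the 10 fits that each left out a library. Of 8 markers of other pituitary hormone cells 4 had no count, and their summed level was from 76.4 to 94.1 in control and from 55.9 to 75.4 in knockdown libraries, nearly all of it *Nr5a1*. Of 11 markers of fibroblasts, endothelial and immune cells 5 had no count, among them *Lum*, *Cdh5* and *Ptprc*. The sum of that list ran from 866 to 1199 in control and from 974.8 to 1722 in knockdown libraries and was mostly *Col1a1*, whose log2 fold change was 0.38 (adjusted p = 0.032, edgeR). The endothelial marker *Pecam1* was at 13.8 ± 3.2 (SD, n = 5) normalised counts in control and 6.41 ± 1.39 (SD, n = 5) in knockdown libraries. It was the only one of the 4 tested genes of that list to pass, 25% against 40.7% of all genes, and fell (log2 fold change -1.08, adjusted p = 0.0063, edgeR). The part of these markers in the results was not tested.

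Of the 10 phosphatase genes 7 had enough counts to enter the fit and 3 did not. *Ptpro*, known from kidney podocytes and neurones, had 0 counts in every library, which allows up to 3 counts per library (the one-sided 95% limit), or at most 0.134 to 0.181 CPM (the count scaled to the effective library size, the total times the TMM factor). *Ptpre*, known from blood cells and osteoclasts, had 2 counts in all, and *Ptprk* had 8, with at most 3 in a library. For these 3 genes a difference between the lines was not detectable at this depth.

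*Ptprd* was nearly silent in the control line. Its normalised counts, which are counts scaled to the same effective library size, were 33.2, 21.2, 31.8, 31.0 and 30.2 in the 5 non-targeting libraries. In the *Creb3l1* knockdown libraries they were 882, 824, 858, 755 and 852. The lowest knockdown library was thus 22.8 times as high as the highest control library, and the lines lay far apart on this gene in each of the libraries. The means were 29.5 ± 4.76 (SD, n = 5) and 834 ± 48.9 (SD, n = 5), 28.3 times higher, a log2 fold change of 4.82. The standard error of 0.088 describes the spread between libraries and is no test, because *Ptprd* was chosen by this value. Among all 14336 genes tested the level of *Ptprd* stood at percentile 11.7 in the control line and at percentile 58.5 in the knockdown line. By the size of its rise it ranked 1 of the 11001 genes with that mean, and 2 of all genes tested. Whether more cells carried *Ptprd* RNA or each cell carried more cannot be told apart in RNA from whole cultures.

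**Figure D1:**
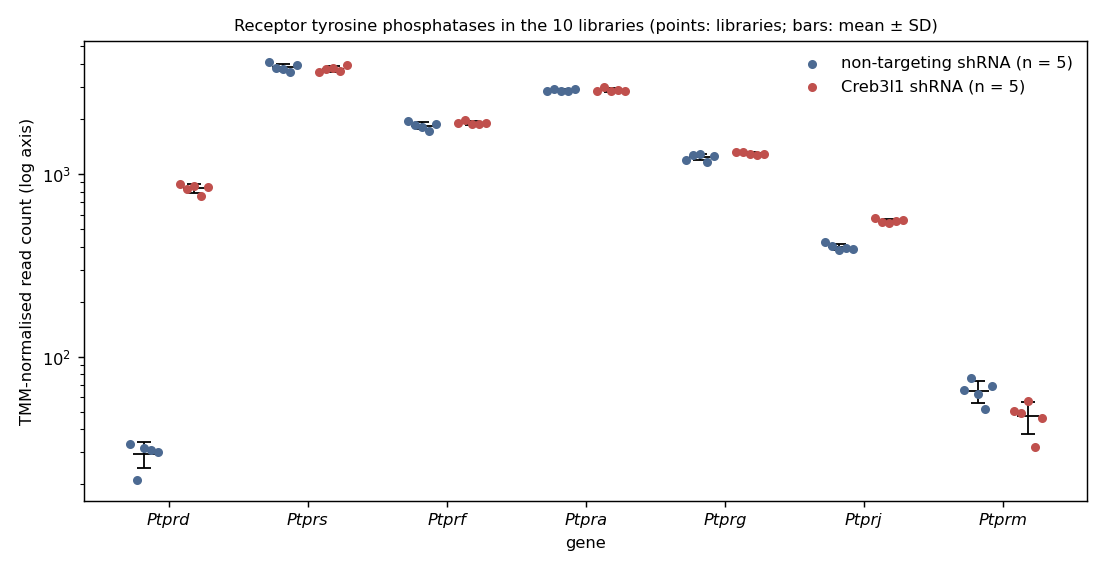
TMM-normalised read counts (log axis) of the 7 phosphatase genes with enough counts, with 1 point per library, non-targeting shRNA in blue and *Creb3l1* shRNA in red, and black bars for the mean ± SD of 5 libraries. *Ptprd* lies near 30 counts in control and between 755 and 882 in knockdown libraries, *Ptprj* is higher in every knockdown library, and the points of the other 5 genes overlap.

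The control values of *Ptprd* rest on 20 to 33 reads per library. Their SD of 4.76 normalised counts compares with 5.52 that counting alone would give, so the spread within the control line was not larger than the error of counting. The coefficient of variation was 16.1% in control and 5.86% in knockdown libraries, where 770 to 960 reads were counted. Replicate 2 of the control line was lowest, with 20 reads and an exact 95% Poisson interval from 12.2 to 30.9, which covers counting error only.

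*Ptprd* (ENSMUSG00000028399) lies on the minus strand of chromosome 4 of GRCm38 from 75941238 to 78211961. It spans 2271 kb and is the 3rd longest of 22028 protein-coding genes in the annotation. It overlaps 9 annotated genes, 7 of them on the opposite strand, but none of these collected more than 13 counts over the 10 libraries. The deposited values are sums over the whole gene, so they do not tell which of its transcripts were present. The nearest tested genes on the side of lower coordinates were *Dmac1*, *Kdm4c* and *Aldoart1*, at 663, 1535 and 3089 kb, and none passed the threshold of an adjusted p under 0.01. On the other side were *Lurap1l* at 2699 kb, *Mpdz* at 3067 kb and the non-coding *Gm5860* at 3853 kb. *Lurap1l* did not pass either (adjusted p = 0.287, edgeR). *Mpdz*, which encodes a scaffold of many PDZ domains, rose (log2 fold change 0.43, edgeR adjusted p = 4.16e-14), and *Gm5860* fell (log2 fold change -0.50, edgeR adjusted p = 5.86e-06). Of all genes tested 40.7% passed the threshold.

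Of the 6 other phosphatases tested, 1 passed the threshold, *Ptprj*, and 0 were lower. Among all genes tested 40.7% passed, 20.6% higher and 20.1% lower in the knockdown line, and with 6 genes the share of 16.7% cannot be set apart from that. The median log2 fold change of the 6 genes was 0.028, and that of all genes was -0.0025. Genes were tested by the quasi-likelihood method of edgeR, and p was adjusted over all 14336 genes by the Benjamini-Hochberg method.

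*Ptprs* (chromosome 17), the closest relative of *Ptprd* among the well-expressed genes and a receptor for proteoglycans on axons, did not differ detectably. Its normalised counts were 4085, 3817, 3770, 3604 and 3924 in control and 3633, 3771, 3779, 3654 and 3940 in knockdown libraries. The values of the lines are interleaved. The log2 fold change was -0.032 with a 95% interval from -0.093 to 0.029 (adjusted p = 0.394, edgeR). When each library was given offsets by GC content and length of the transcripts, it was -0.089 and passed the threshold (adjusted p = 0.00389, edgeR).

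*Ptprf* (chromosome 4), which encodes LAR itself, was at 1954, 1846, 1811, 1718 and 1869 normalised counts in control libraries. In knockdown libraries it was at 1906, 1986, 1875, 1868 and 1905. The ranges overlap, and the log2 fold change was 0.053 with a 95% interval from -0.014 to 0.12 (adjusted p = 0.19, edgeR). Its sign turned with the offsets, to -0.0098.

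Per length of transcript *Ptprs* was the highest of the LAR type in both lines, by a margin that depends on the length used. In CPM per kilobase of the longest annotated transcript, *Ptprs* was at 27.6 ± 1.3 (SD, n = 5), *Ptprf* at 11.9 ± 0.55 (SD, n = 5) and *Ptprd* at 0.147 ± 0.024 (SD, n = 5) in control libraries. *Ptprd* held between 0.268% and 0.416% of the summed level of the 3 genes in control libraries and between 8.94% and 10.3% in knockdown libraries. With the length of all annotated exons in place of the longest transcript the means were 0.282% and 7.38%. By that length *Ptprs* held on average 55.9% in control and 50.5% in knockdown libraries, and *Ptprf* held 43.9% and 42.1%. By the longest transcript *Ptprs* held 69.7% and 62.1%, and *Ptprf* held 29.9% and 28.3%. The sum of the 3 genes was from 37.2 to 42.1 in control and from 42.1 to 44.9 CPM per kilobase in knockdown libraries. Its means by the longest transcript were 39.6 and 43.5, and those of *Ptprd* were 0.147 and 4.16. The sum thus rose far less than *Ptprd* as a ratio, but by a like amount in CPM per kilobase.

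The pair with short outer parts was represented by *Ptpra* (chromosome 2) alone. It was at 2851, 2920, 2844, 2830 and 2932 normalised counts in control and at 2842, 2999, 2853, 2872 and 2845 in knockdown libraries. Apart from knockdown replicate 2, which was highest, the libraries of both lines lay in the same range. The log2 fold change of 0.0031 had a 95% interval from -0.053 to 0.060 (adjusted p = 0.936, edgeR). It was negative in 4 of the other fits, down to -0.054 with the offsets, and passed the threshold in none.

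*Ptprg* (chromosome 14), the contactin receptor, was at 1196, 1264, 1290, 1170 and 1258 normalised counts in control libraries. In knockdown libraries it was at 1322, 1317, 1283, 1272 and 1280. Replicates 1 and 2 of the knockdown line lay above every control library, and the other 3 lay within the control range. The log2 fold change was 0.069 with a 95% interval from -0.0026 to 0.141 (adjusted p = 0.104, edgeR), and with the offsets it was -0.061.

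*Ptprj* (chromosome 2), also named DEP-1 or CD148 and known for acting on growth factor receptors and Src kinases, rose. Its normalised counts were 425.5, 402, 384, 393 and 390.4 in control and 576, 549, 539, 555 and 559 in knockdown libraries. Every knockdown library was above every control library, as was so for 18.3% of all genes tested. The rise was 1.39-fold (log2 fold change 0.48, standard error 0.053, adjusted p = 5.53e-10, edgeR). Over the alternatives it was between 0.38 and 0.50 and kept an adjusted p under 0.01 in each.

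*Ptprm* (chromosome 17), a homophilic adhesion phosphatase, was low. Its normalised counts were 65.4, 76.3, 62.4, 51.6 and 68.8 in control and 50.5, 49.2, 57.4, 32.2 and 46.4 in knockdown libraries. Only replicate 4 of the control line and replicate 3 of the knockdown line lay within the range of the other line. The adjusted p of 0.0116 missed the threshold (edgeR, log2 fold change -0.46, standard error 0.155). It passed without control replicate 4 (-0.54, adjusted p = 0.00538, edgeR), without knockdown replicate 3 (-0.54, adjusted p = 0.00691, edgeR), with the replicate number as a block (adjusted p = 0.00841, edgeR) and with the offsets (adjusted p = 0.00371, edgeR). At this depth the call on *Ptprm* depends on single libraries.

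The order of levels per length among the 7 genes in the control line was *Ptprs*, *Ptpra*, *Ptprf*, *Ptprg*, *Ptprj*, *Ptprm* and *Ptprd*. *Ptprs* (27.6 CPM per kilobase) and *Ptpra* (26.6 ± 0.44, SD, n = 5) overlapped and changed places when all exons were counted as length. The steps from *Ptpra* to *Ptprf* (11.9), *Ptprg* (6.61), *Ptprj* (2.58), *Ptprm* (0.617) and *Ptprd* (0.147) were each larger than the spread between libraries. In the knockdown line *Ptprd*, at 4.16 ± 0.24 (SD, n = 5) CPM per kilobase, came 5th, above *Ptprj* at 3.59 ± 0.088 (SD, n = 5). With all exons as length it was 6th, at 1.80 against 3.28 for *Ptprj*, so the order of these genes depends on the length used. *Ptprd* made up 0.193% of the summed level of the 7 genes in the control line and 5.12% in the knockdown line.

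**Figure D2:**
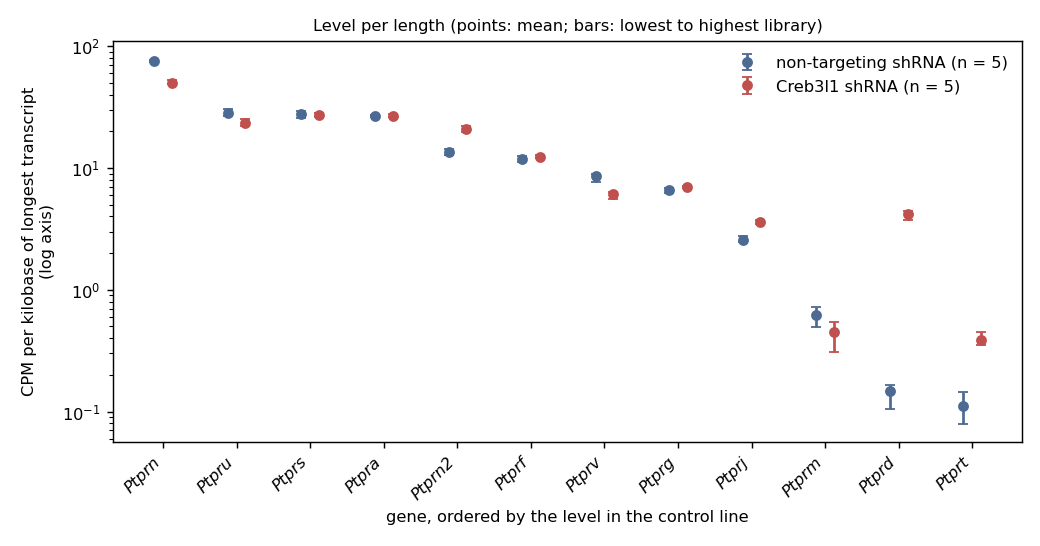
Level of 12 receptor-type phosphatase genes in CPM per kilobase of the longest annotated transcript (log axis), ordered by the control line, with points for the mean of 5 libraries and bars from the lowest to the highest library. *Ptprd* moves from 0.147 to 4.16 and *Ptprt* from 0.111 to 0.39, while *Ptprs*, *Ptpra*, *Ptprf* and *Ptprg* have nearly the same level in both lines.

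The 11 other receptor-type phosphatase genes of the mouse were examined for comparison. Of these, 3 had no count (*Ptprc*, *Ptprr* and *Ptprz1*), *Ptprb*, *Ptprh* and *Ptprq* had between 1 and 10 counts in all, and 5 were tested. All 5 passed the threshold and did not overlap between the lines, 2 higher and 3 lower, where 40.7% of all genes passed and 36.0% did not overlap.

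*Ptprt*, a brain phosphatase of the same homophilic type as *Ptprm*, was, with *Ptprd*, the lowest in the control line of the 12 receptor-type genes tested. Its normalised counts were 29.2, 22.3, 19.6, 30.1 and 35.8 in control and 102.9, 86.7, 91.5, 88.1 and 110.0 in knockdown libraries. It rose 3.45-fold (log2 fold change 1.79, standard error 0.155, adjusted p = 7.43e-13, edgeR). *Ptpru*, of the same type, was at 3120 ± 166 (SD, n = 5) normalised counts in control and 2589 ± 141 (SD, n = 5) in knockdown libraries and fell by 0.27 on the log2 scale.

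*Ptprn* and *Ptprn2* encode IA-2 and phogrin, proteins of the dense-core granule membrane whose phosphatase domains lack the usual activity, and they moved in opposite directions. *Ptprn* was at 5582, 5328, 5454, 5400 and 5550 in control and at 3631, 3540, 3770, 3620 and 3539 normalised counts in knockdown libraries. It was the highest of the family per length, at 75.8 CPM per kilobase in control and 50.2 in knockdown libraries, and it fell (log2 fold change -0.59, adjusted p = 7.14e-22, edgeR). *Ptprn2* rose from a mean of 1157 ± 61.4 (SD, n = 5) to 1790 ± 68.4 (SD, n = 5), or by 0.63 in log2 units (adjusted p = 4.31e-18, edgeR). *Ptprv*, a phosphatase known from bone and testis, fell by 0.51 on the log2 scale, from 1070 ± 68.6 (SD, n = 5) to 751 ± 44.2 (SD, n = 5). The catalytic loops of the 2 granule genes are given because their products are known to lack the usual activity.

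Ptprn: gtgcacTGCagtgacggtgcagggAGGaca
Ptprn2: gtccatTGCagtgacggcgccggcAGGagt

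**Figure D3:**
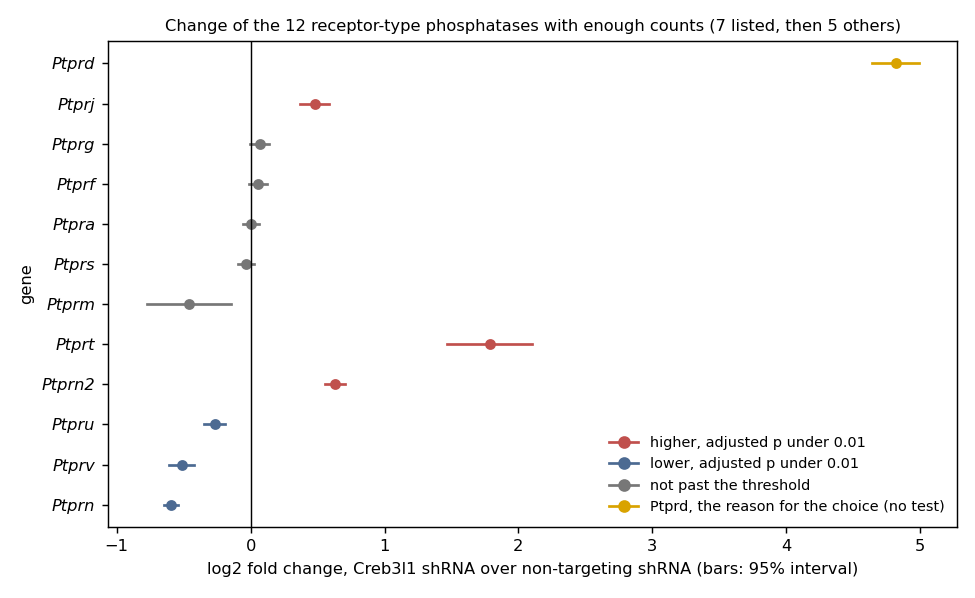
Log2 fold change of *Creb3l1* shRNA over non-targeting shRNA for the 7 listed phosphatases and then for 5 others, each with its 95% interval; colours show the direction of genes past an adjusted p under 0.01, grey those not past it, and yellow *Ptprd*, for which no test is given. *Ptprd* stands at 4.82, *Ptprt* at 1.79, and the remaining genes lie between -0.59 and 0.63. The interval drawn for *Ptprd* is no test, because the gene was chosen for this difference.

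The adhesion proteins that bind the LAR type across the synapse were mostly absent or higher. Of 16 such genes 8 were tested, and 5 were higher and 0 lower in the knockdown line, a share of 62.5% against 40.7% of all genes. The median log2 fold change was 0.26. *Ntrk3*, which encodes TrkC, a neurotrophin receptor that also binds the product of *Ptprs*, was at 445, 409, 520, 456 and 460.1 normalised counts in control libraries. In knockdown libraries it was at 1620, 1566, 1585, 1591 and 1847. It rose 3.60-fold (log2 fold change 1.85, standard error 0.053, adjusted p = 2.14e-20, edgeR). *Il1rap*, the accessory chain of the interleukin 1 receptor and a ligand of the *Ptprd* product, rose by 0.37, and *Lrfn3*, of the SALM adhesion proteins, rose by 0.36 on the log2 scale. *Slitrk1*, a synaptic adhesion protein that was named after its values were seen, was at 15.0 ± 4.91 (SD, n = 5) in control and 58.1 ± 2.46 (SD, n = 5) in knockdown libraries (log2 fold change 1.93, adjusted p = 7.32e-11, edgeR). *Lrfn1*, *Lrfn5* and *Lrrc4b* did not pass the threshold.

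The proteoglycans, contactins and their companions *Ptn* and *Mdk* moved both ways. Of 27 genes 14 were tested, and 4 were higher and 5 lower, 64.3% against 40.7% of all genes, with a median log2 fold change of 0.050. *Col18a1*, a heparan sulphate collagen of basement membranes, fell by 1.04 on the log2 scale, its means being 4337 ± 181 (SD, n = 5) in control and 2115 ± 49.95 (SD, n = 5) in knockdown libraries. *Bcan*, which encodes brevican, fell by 0.48 and *Sdc1* by 0.30, while its relative *Sdc2* rose by 0.39. *Sdc3* (0.13) and *Cntn3* (0.19), a contactin, passed with overlapping values, and their calls were lost in 6 and 2 of the 10 fits that each left out a library (for *Sdc3* control replicates 2, 4 and 5 and knockdown replicates 1, 2 and 3, with log2 fold changes of at least 0.113, and for *Cntn3* control replicate 2 and knockdown replicate 5, with 0.17 in both). That of *Sdc3* was also lost with DESeq2 (adjusted p = 0.0143), with a minimum of 10 counts (adjusted p = 0.0104, edgeR) and with the offsets (adjusted p = 0.0118, edgeR), and that of *Cntn3* with the offsets (0.098, adjusted p = 0.104, edgeR). *Cntn1*, which was named after its values were seen, fell by 1.40, with means of 126.5 ± 10.4 (SD, n = 5) in control and 47.9 ± 3.96 (SD, n = 5) in knockdown libraries (adjusted p = 3.81e-13, edgeR).

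Inside the cell, the LAR type binds liprins, Caskins, the exchange factor Trio and proteins that extend actin filaments. Of 18 such genes 16 were tested, and 7 were higher and 3 lower, 62.5% against 40.7% of all genes, with a median log2 fold change of 0.071. *Enah*, an actin regulator, rose by 0.37, *Trio* by 0.31 and *Abl1*, a tyrosine kinase, by 0.28 on the log2 scale. *Vasp* and *Evl*, relatives of *Enah*, rose as well, by 0.25 and 0.22. *Ppfia3*, a liprin, fell by 0.32, *Caskin2* by 0.23 and *Nedd9* by 0.16. The liprin genes *Ppfia1* (0.055) and *Ppfia2* (0.053) did not pass the threshold.

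**Figure D4:**
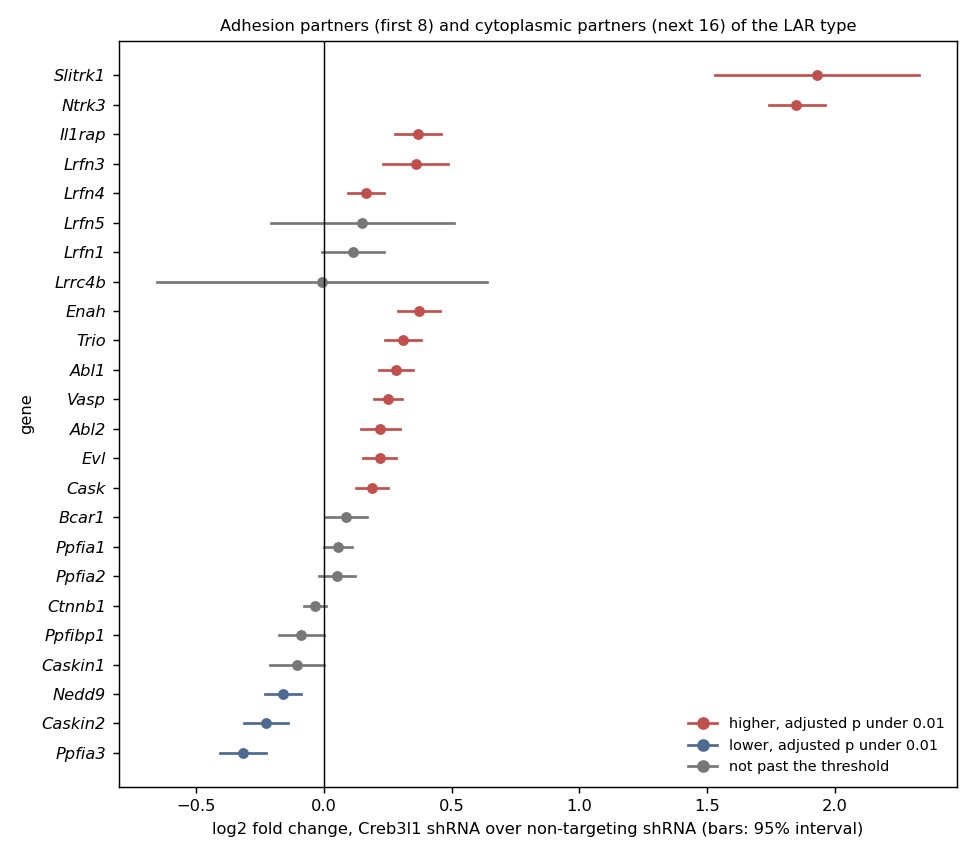
Log2 fold change with its 95% interval for 8 adhesion partners and then 16 cytoplasmic partners of the LAR type, coloured as in the plot of the phosphatases. The 5 adhesion partners past the threshold are all higher, *Slitrk1* and *Ntrk3* by 1.93 and 1.85, and the changes of the cytoplasmic partners lie between -0.32 and 0.37.

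Src-family kinases and adhesion substrates are targets of *Ptpra* and *Ptprj*. Of 15 genes 13 were tested, and 4 were higher and 2 lower, 46.2% against 40.7% of all genes, with a median log2 fold change of 0.089. *Csk*, which adds the phosphate that *Ptpra* is known to remove from Src, rose by 0.35 (adjusted p = 1.19e-11, edgeR), *Git1* rose by 0.30 and *Ptk2*, the focal adhesion kinase, by 0.20. *Pxn*, which encodes paxillin, fell by 0.27 on the log2 scale. *Src* (0.089), *Fyn* (0.0059) and *Yes1* (0.12), 3 Src-family kinases, did not pass.

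The cytosolic tyrosine phosphatases act on many of the same phosphotyrosines. Of 17 genes 15 were tested, and 2 were higher and 1 lower, 20% against 40.7% of all genes, with a median log2 fold change of -0.0049. With the offsets by GC content and length 5 passed. *Ptpn12*, which acts on adhesion substrates, rose by 0.48 on the log2 scale, its means being 726 ± 23.5 (SD, n = 5) in control and 1011 ± 21.2 (SD, n = 5) in knockdown libraries. *Ptpn21* rose by 0.28 and *Ptpn13* fell by 0.22 on the log2 scale. *Ptpn1* (-0.0049) and *Ptpn11* (-0.013) did not pass.

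The genes whose profile over the 10 libraries was most like that of *Ptprd* were sought among 11000 genes, by the root mean square difference of log2 CPM, each gene being set to its own control mean. The nearest were *Kif26a* (0.757), a kinesin, *Lrrc17* (1.10), *Adamts9* (1.22), a metalloproteinase, *Sod3* (1.26), the extracellular superoxide dismutase, and *Npy1r* (1.38), a neuropeptide Y receptor. *Npy1r* was at 84.9 ± 14.9 (SD, n = 5) in control and 611 ± 31.7 (SD, n = 5) normalised counts in knockdown libraries. These 5 genes lie on chromosomes other than that of *Ptprd*, and by its construction the measure follows mainly the size of the difference between the lines.

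Promoter sequences from RefSeq (GRCm38.p6, 250 bases before to 50 after a start of transcription, of which a gene may have several) were at hand for 9 of the 10 phosphatases, *Ptprd* not among them, with 14 promoters in all. The word GACGTG is the core of the G-box that the study reports for Creb3l1 in the *Pcsk1* promoter. It was sought on both strands and occurred in 4 of the 14 promoters, or 28.6%, against 6.38% of 32851 promoters. The share of 28.6% rests on these 4 promoters only, and its difference from that of all promoters was not tested. The match in *Ptprg* lies at an internal start, far downstream of the gene's first. The 4 matches are shown with the word in capitals, or its reverse complement in *Ptprs*, because this is a word bound by the factor whose gene was targeted.

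Ptpra, chr2:130450080-130450109, plus strand: gactaggtgggaGACGTGtgccaggggagg
Ptprg, chr14:12189934-12189963, plus strand: ccagcaagcagtGACGTGgatgctggaaag
Ptprs, chr17:56476596-56476625, minus strand: ggccacgtgtccCACGTCccacgtgctccc
Ptprm, chr17:67354529-67354558, minus strand: cggcccggccgtGACGTGggctccttccag

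The related palindrome CACGTG, which differs from the other word in 1 letter, occurred in the *Ptprs* promoter and in 7.15% of all promoters. Of the 4 genes with GACGTG 0 passed the threshold between the lines in the main fit, where 40.7% of all genes did. *Ptprs* passed with the offsets, and *Ptprm* passed in 4 of 17 other fits. With 4 genes the share cannot be set apart from that of all genes, and the part of the word in the differences was not tested. *Ptprj*, which passed, had no match in these windows.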

How the data were processed

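RNA was sequenced from 10 samples of AtT20 lines. Stranded poly(A) libraries were read from both ends over 75 bases. The authors trimmed the reads, aligned them to GRCm38 (STAR) and summed them over Ensembl genes (featureCounts); the versions of these tools and the strand setting of the counting are not given in the sources used here. The deposited values are raw read counts, with no normalisation. PCR, protein and rat data were not analysed here.

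Symbols, positions and lengths came from GENCODE M21 (GRCm38). Symbols missing there were taken from a second list of gene names, and 53706 of 53801 identifiers then had a symbol. Genes passing filterByExpr (14336) were scaled by TMM factors and tested with edgeR 4.0.16 (quasi-likelihood, robust, no covariate) in R 4.3.3, with Benjamini-Hochberg adjustment and a threshold of 0.01. Standard errors came from the log2 fold change and its F statistic. Overlapping genes on opposite strands could share reads if strand was not used. The script was tested on simulated data. The fit with offsets used splines of 5 degrees of freedom for GC content and transcript length. Other alternatives were DESeq2 1.42.0, RLE factors, library totals, other filters, a replicate block and each library left out.

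The phosphatases, the lists and the alternatives were chosen with earlier results of these data known. Named genes are the 10 phosphatases, *Creb3l1*, up to 3 rises and 3 falls per list where the mean reached 100 normalised counts, the tested other receptor-type phosphatases and corticotroph markers, the 5 genes of nearest profile and the 3 neighbours on each side of *Ptprd*.
Further genes of the lists that the text names were picked after their values were seen.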

Additional observations from a re-analysis of the deposited data

Results flagged for a closer look

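For each group of 5 libraries, the distance of the extreme library from the next was divided by the range and compared with Dixon's value of 0.71, which chance passes in about 1 of 20 groups. Of 116 groups examined 9 passed, where chance gives about 5.80. *Ptprd* in control replicate 2 had 21.2 normalised counts, the rest of that line 30.2 to 33.2. *Ptpra* was at 2999 in *Creb3l1* shRNA replicate 2, against 2842 to 2872. *Ntrk3* was at 1847 in *Creb3l1* shRNA replicate 5, against 1566 to 1620. *Sdc2* in control replicate 1 had 872, against 961 to 986. *Caskin2* was at 774 in *Creb3l1* shRNA replicate 3, against 721 to 736. *Nedd9* in control replicate 5 had 1537, against 1387 to 1428. The remaining 3 concern whole libraries. In non-targeting shRNA replicate 3 the TMM factor was 0.953, against 1.005 to 1.007, and *Gm42418* took 4.129% of the counts. In *Creb3l1* shRNA replicate 1 the TMM factor was 0.9997, against 1.005 to 1.006.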

How the results depend on the processing

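The log2 fold change of *Ptprd* lay between 4.67 and 4.87 over all alternatives and that of *Creb3l1* between -1.78 and -1.71. Of 900 values of 53 other named genes, 867 kept their direction and their side of the threshold. The number of the 6 phosphatases past the threshold was 1; it was 1 to 2 with each library left out, 2 at an adjusted p under 0.05 and 3 with offsets by GC content and length, where *Ptprs* and *Ptprm* were added. With the offsets 5 of the cytosolic phosphatases passed in place of 3. With the offsets the sign turned for *Ptprf* (-0.0098), *Ptpra* (-0.054), *Ptprg* (-0.061) and *Dmac1* (0.052). With each library left out *Ptpra* ranged from -0.0091 to 0.013 and *Crhr1* from -0.363 to 0.020. The sign of *Ptpra* turned without control replicate 3 (-0.00366) or 4 (-0.00259) and without knockdown replicate 2 (-0.0091), and that of *Crhr1* without control replicate 5 (0.00837) or knockdown replicate 4 (0.020). None of these 9 values passed the threshold, and the cause was not tested. The number of all genes called was 5837, from 5408 to 6026 with each library left out, and 5662 with DESeq2.

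The replicate numbers were read from the last digit of the sample titles. The deviations of same-numbered libraries correlated between -0.089 and 0.091, and 2 of the control libraries had their best partner at the same number. These values do not settle whether the samples were paired. The replicate block gave 6013 genes in all, and 2 of the 6 phosphatases, *Ptprm* being added. Depth limits *Ptprm* and the control level of *Ptprd*, and nothing can be said of *Ptpro*, *Ptpre* and *Ptprk* beyond their counts. The levels per length with all exons as length were chosen after seeing the data.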
